A study of Mus musculus with 15 samples.

Results

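The neurotrophins are secreted growth factors that keep neurons alive and shape their synapses, and the genes described here are 3 of their ligands and 3 of their receptors: Bdnf (brain-derived neurotrophic factor), Ntf3 (neurotrophin-3), Ntf5 (the mouse symbol for neurotrophin-4), Ntrk2 (TrkB, the receptor of BDNF and neurotrophin-4), Ntrk3 (TrkC, the receptor of neurotrophin-3) and Ngfr (p75NTR, which binds all neurotrophins). They are 6 of the 21938 protein-coding genes of GENCODE M21 and were chosen by name. Their data are all summits of WT H3K4me3 peaks that lay within 1 kb of any of their annotated transcription start sites (TSSs) or anywhere in the gene body, which gave 11 of the 24139 summits on chromosomes 1 to 19, X and Y.

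H3K4me3, trimethylation of lysine 4 of histone H3, marks nucleosomes at active or poised promoters. The series profiled it by native ChIP-seq, with micrococcal nuclease digestion, in amygdala tissue of adult male F1 mice of the hybrid background that the labels call 129xB6. There were 11 H3K4me3 samples, 2 from WT mice and 3 each from Kmt2a-HET, Kdm5c-KO and Kmt2a-Kdm5c double-mutant mice, and 4 inputs, 1 per genotype. Only the WT peaks were analysed here, as 1 list made by the authors for both WT mice, so no value below has a replicate error and no genotypes were compared. Each entry is a summit of 1 bp with a score. The scale of the score is not named in the list and was taken to be −log10 of the q-value of MACS2. A score depends on enrichment and on read depth together, and the list does not give the depth behind it. Peak widths are not in the list, so a promoter called unmarked below, with no summit within 1 kb, may still lie in a peak. The list had a median score of 102.3 and quartiles of 15 and 201.2.

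Neurotrophins are made as precursors that are cleaved to the mature form. Mature ligands act through Trk receptor tyrosine kinases, which signal through adaptor proteins to the Ras, PI3-kinase and phospholipase C pathways, while p75NTR also binds precursors together with sortilin family receptors. In the amygdala, BDNF and TrkB are best known for their part in fear learning. Bdnf is also a standard case of a gene with many promoters, each splicing its own 5′ exon to 1 shared coding exon.

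All 6 genes carried at least 1 WT summit within 1 kb of a TSS, compared with 64.7% of all protein-coding genes. The levels divided the Trk receptor genes Ntrk2 and Ntrk3 from the ligands and from Ngfr. The highest promoter scores were 232.7 at Ntrk3 and 231.6 at Ntrk2, then 122.6 at Bdnf, 26.62 at Ngfr, 9.717 at Ntf3 and 7.763 at Ntf5. Among the 14197 protein-coding genes with a promoter summit, whose median highest score was 194.6, Ntrk3 and Ntrk2 stood above 77.2% and 76.2% of genes. Bdnf stood above 23.4%, Ngfr above 7.57%, Ntf3 above 3.09% and Ntf5 above 2.21%. Of the 6 genes, 3 reached the list median of 102.3, as did 52% of all protein-coding genes and 80.4% of those with a promoter summit. The list gives no spread with which to say whether neighbours in this order, such as Ntrk3 and Ntrk2 or Ntf3 and Ntf5, differ. Amygdala tissue is a mixture of cells, so a low score from few marked cells and one from weak marking of many cells cannot be told apart.

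**Figure D1:**
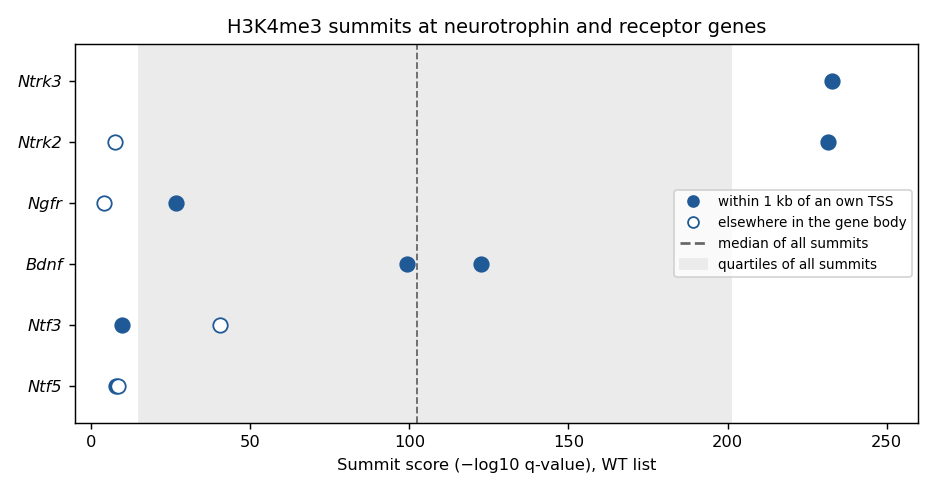
Scores of the 11 WT H3K4me3 summits (x axis, −log10 of the q-value) at the 6 genes (rows). Filled points lie within 1 kb of a TSS of the gene and open points elsewhere in its body, and the dashed line and grey band are the median (102.3) and quartiles (15 and 201.2) of all summits; the promoter summits of Ntrk2 and Ntrk3 lie above the upper quartile, while Ntf5 has none above the lower quartile.

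The sequences on which the marked promoters rest are shown first, on GRCm38 (mm10) and on the strand of each gene, 5′ to 3′. TSSs of 1 gene within 500 bp of each other were counted as 1 promoter, and promoters were numbered in the direction of transcription. At Bdnf the 120 bases that end just before the TSS are given for 3 promoters without a summit within 1 kb (promoters 1, 4 and 8) and for both promoters nearest to a summit (3 and 6), with CpG dinucleotides in capitals. Promoter 6 had the most CpGs of the 8 Bdnf promoters in these 120 bases, with 11, and promoter 8 the fewest, with 1.
Bdnf promoter 1, chr2:109674580-109674699, + strand: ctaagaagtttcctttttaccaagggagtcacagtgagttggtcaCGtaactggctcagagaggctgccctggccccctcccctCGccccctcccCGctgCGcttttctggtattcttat
Bdnf promoter 3, chr2:109676912-109677031, + strand: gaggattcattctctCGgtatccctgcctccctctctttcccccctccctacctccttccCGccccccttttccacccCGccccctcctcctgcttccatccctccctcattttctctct
Bdnf promoter 4, chr2:109692316-109692435, + strand: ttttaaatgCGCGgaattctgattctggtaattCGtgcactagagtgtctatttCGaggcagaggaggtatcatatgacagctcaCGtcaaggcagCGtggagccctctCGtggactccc
Bdnf promoter 6, chr2:109693443-109693562, + strand: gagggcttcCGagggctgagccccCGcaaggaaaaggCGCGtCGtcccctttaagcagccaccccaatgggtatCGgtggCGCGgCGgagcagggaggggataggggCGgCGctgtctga
Bdnf promoter 8, chr2:109709263-109709382, + strand: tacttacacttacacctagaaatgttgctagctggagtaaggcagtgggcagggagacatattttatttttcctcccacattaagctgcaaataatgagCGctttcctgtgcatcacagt

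The next windows show pairs of promoters of 1 gene of which the upstream one was unmarked. Both members of the Ntrk2 pair were rich in CpGs, with 11 upstream of promoter 1 and 9 upstream of promoter 2, and the Ntf3 pair had 7 and 11.
Ntrk2 promoter 1, chr13:58806449-58806568, + strand: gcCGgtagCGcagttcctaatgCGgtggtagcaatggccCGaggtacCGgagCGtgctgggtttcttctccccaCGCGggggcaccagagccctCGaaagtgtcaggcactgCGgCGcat
Ntrk2 promoter 2, chr13:58807577-58807696, + strand: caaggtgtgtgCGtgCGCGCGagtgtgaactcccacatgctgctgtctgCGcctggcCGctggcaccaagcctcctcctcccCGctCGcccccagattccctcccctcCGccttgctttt
Ntf3 promoter 1, chr6:126166911-126167030, - strand: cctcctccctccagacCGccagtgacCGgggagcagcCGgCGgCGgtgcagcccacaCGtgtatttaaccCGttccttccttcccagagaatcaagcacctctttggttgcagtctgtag
Ntf3 promoter 2, chr6:126164961-126165080, - strand: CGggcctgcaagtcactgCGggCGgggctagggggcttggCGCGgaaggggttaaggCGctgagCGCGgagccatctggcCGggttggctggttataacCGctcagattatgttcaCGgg

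For 4 summits outside untranslated sequence, the 147 bases centred on the summit are shown, about the length of DNA on 1 nucleosome. They held 9 CpGs at the higher Bdnf summit, 6 at the Ntrk3 summit, 5 at the Ngfr promoter summit and 10 at the intronic Ntf3 summit.
Bdnf upstream summit, chr2:109677512-109677658, + strand: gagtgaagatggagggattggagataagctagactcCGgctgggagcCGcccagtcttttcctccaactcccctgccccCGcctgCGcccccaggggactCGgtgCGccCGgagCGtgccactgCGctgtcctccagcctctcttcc
Ntrk3 summit, chr7:78577543-78577689, - strand: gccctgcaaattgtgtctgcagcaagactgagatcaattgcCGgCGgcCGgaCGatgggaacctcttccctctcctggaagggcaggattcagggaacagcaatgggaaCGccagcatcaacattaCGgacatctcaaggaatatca
Ngfr promoter summit, chr11:95587344-95587490, - strand: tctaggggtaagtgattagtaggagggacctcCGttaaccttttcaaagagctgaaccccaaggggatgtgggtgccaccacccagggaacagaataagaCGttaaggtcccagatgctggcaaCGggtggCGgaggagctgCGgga
Ntf3 intronic summit, chr6:126163343-126163489, - strand: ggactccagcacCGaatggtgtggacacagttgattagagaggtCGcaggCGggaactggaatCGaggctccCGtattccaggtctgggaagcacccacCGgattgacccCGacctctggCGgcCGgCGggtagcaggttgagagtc

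Ntrk2 (ENSMUSG00000055254, chromosome 13, 58806569 to 59133970, plus strand) encodes TrkB, and its 10 transcripts start at 9 TSSs that form 4 promoters. The summit at 58808576 had a score of 231.6, above 87.5% of the list. It lay 115 bp upstream of the TSS of Ntrk2-208 and Ntrk2-209 and 153 bp upstream of the start codon, which all 7 coding transcripts share, within the 5′ untranslated region of 5 transcripts. All 4 TSSs of promoter 2 were within 1 kb of it, the farthest, that of Ntrk2-201, at 879 bp. Promoter 1, with the TSSs of Ntrk2-204, Ntrk2-206 and Ntrk2-207, was 1937 bp away at its nearest and had no summit of its own. The Ntrk2 summit with the high score thus lay beside the promoter next to the start codon. Promoters 3 and 4, which start no transcript annotated as protein-coding, lay 27239 and 63159 bp downstream of the summit and were unmarked. Coding transcripts here are those annotated as protein-coding, which leaves out retained introns and transcripts annotated for nonsense-mediated decay. A second Ntrk2 summit, at 59011604, scored 7.386 and lay in an intron 139869 bp from the nearest Ntrk2 TSS. The TSS of Gm34245, a gene that overlaps Ntrk2, was nearer to it, at 66692 bp.

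Ntrk3 (ENSMUSG00000059146, chromosome 7, 78175959 to 78738012, minus strand) encodes TrkC. It was the longest of the 6 genes, at 562054 bp, with 20 transcripts, 19 TSSs and 11 promoters, and it had the fewest summits. Its only summit, at 78577616, had a score of 232.7, above 88.1% of the list. It lay in coding sequence, 167 bp downstream of the start codon shared by all 6 coding transcripts. The TSS annotated for Ntrk3-206 is that start codon itself, so this TSS has no untranslated sequence before it. The other TSSs of promoter 5 lay further upstream, the 5 within 1 kb at 173 to 792 bp from the summit and that of Ntrk3-220 at 1082 bp. The 10 promoters other than promoter 5 were unmarked, the outermost of them 160396 bp upstream of the summit. At both Trk genes, then, 1 summit in the upper quartile of the list lay close to the start codon. The distance was 153 bp before it at Ntrk2 and 167 bp after it at Ntrk3. Such closeness was not particular to the Trk genes, as the promoter summits of Ngfr and Ntf3 lay 141 and 55 bp downstream of a start codon. Every promoter of the Trk genes without a coding transcript was unmarked, and over all protein-coding genes only 8.54% of such promoters were marked.

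Ngfr (ENSMUSG00000000120, chromosome 11, 95568818 to 95587735, minus strand) has 1 transcript and 1 promoter. Its promoter summit, at 95587417, had a score of 26.62, above 32% of the list, and lay 318 bp downstream of the TSS in an intron. The start codon was 141 bp upstream of this summit. A weaker summit, with a score of 4.033, lay 1519 bp downstream of the TSS at 95586216, and the 1201 bp between the 2 summits kept them apart when summits within 1 kb were joined. The p75NTR gene thus had a promoter summit below the list median, unlike Ntrk2 and Ntrk3.

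**Figure D2:**
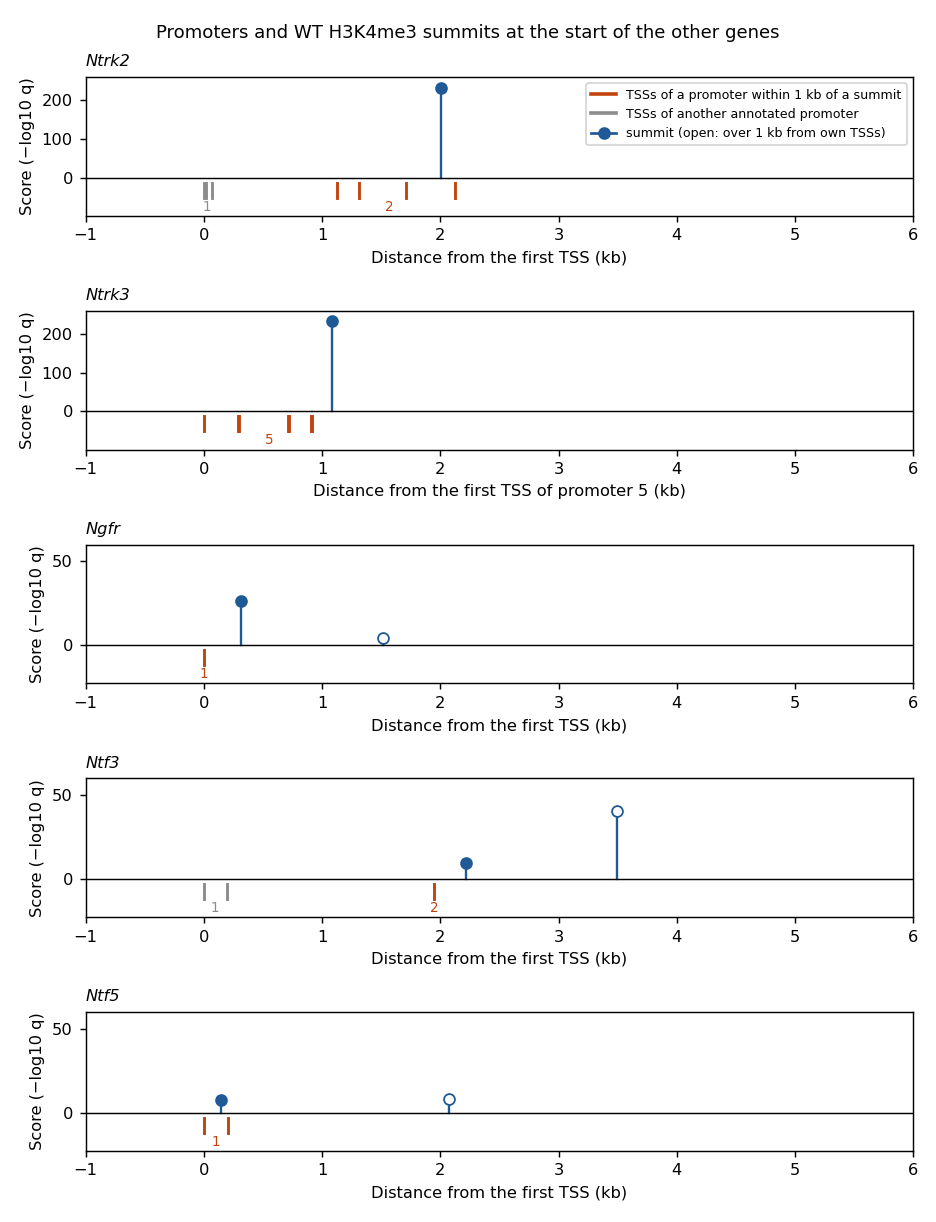
Promoters and WT H3K4me3 summits in 7 kb around the starts of Ntrk2, Ntrk3, Ngfr, Ntf3 and Ntf5, against the distance from the outermost TSS (for Ntrk3, from the outermost TSS of promoter 5) in kb. Stems give the score of each summit (−log10 of the q-value, with a different axis for the Trk genes), and numbered ticks are TSSs grouped into promoters; at Ntrk2 and Ntf3 the summits lie downstream of an unmarked outer promoter.

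Bdnf (ENSMUSG00000048482, chromosome 2, 109674700 to 109727007, plus strand) had 11 transcripts, 9 TSSs and 8 promoters. The start codon at 109723403 is shared by 9 of the 11 transcripts. The other 2 start codons belong to Bdnf-201, which starts at promoter 1, and Bdnf-202, which starts at promoter 8. Bdnf carried 2 summits, both within 1 kb of a TSS and neither near the shared start codon, from which they lay 45818 and 29624 bp upstream. The upstream summit, at 109677585, had a score of 122.6, above 53.7% of the list. It lay in an intron, 553 bp downstream of the TSS of Bdnf-206, which is promoter 3. Promoters 1 and 2 were 2885 and 1688 bp upstream of it and unmarked by the 1 kb rule. Of all promoter summits in the list, 91.2% lay closer to a TSS or upstream of it, counting downstream distance as positive, with a median of 163 bp. The upstream Bdnf summit was therefore far downstream for a promoter summit, and it was also the only one of the 7 promoter summits that the narrower window of 500 bp did not reach. It also lay 994 bp upstream of the TSS of Gm45346, an antisense gene that overlaps Bdnf, and ChIP fragments carry no strand by which to divide them between the genes.

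The downstream Bdnf summit, at 109693779, had a score of 99.41, above 49.5% of the list. It lay 216 bp downstream of the TSS of Bdnf-205 (promoter 6), in the 5′ untranslated exon of that transcript. Promoter 5, the TSS of Bdnf-211, was 752 bp upstream of it, and the TSSs of promoter 7, those of Bdnf-203 and Bdnf-204, were 630 and 690 bp downstream. One summit thus stood for promoters 5, 6 and 7, and which of them it belongs to cannot be read from its position alone. Promoter 4, the TSS of Bdnf-209, was 1343 bp upstream and fell outside the window. Promoter 8 was 15604 bp away and unmarked.

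The 2 Bdnf summits were 16194 bp apart, and their scores had a ratio of 1.23. Bdnf was the only one of the 4 genes with several promoters that had 2 or more marked, compared with 22.1% of protein-coding genes with 2 or more promoters. This count rests on the window and the grouping of TSSs: with a 500 bp window Bdnf had 1, with a 3 kb window Ntf3 and Ntrk2 had 2 each, and with TSSs grouped within 100 bp Ntrk2 had 4 and Ntrk3 had 3. By the 1 kb rule 4 of the 8 Bdnf promoters were marked, and 2 when each summit was given only to its nearest promoter. Of the 489 genes with 8 or more promoters, 48.5% had 2 or more promoter summits and 13.9% had 4 or more marked promoters. The genes closest to Bdnf in these counts, with 8 promoters of which 4 were marked, were Sema4a, Atf7ip and Tns2, taken from 6 genes with these numbers by the nearest highest score. Their highest promoter scores were 162.4, 165.2 and 64.89. Each of them had 4 promoter summits, and Bdnf reached the same count of promoters with 2.

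**Figure D3:**
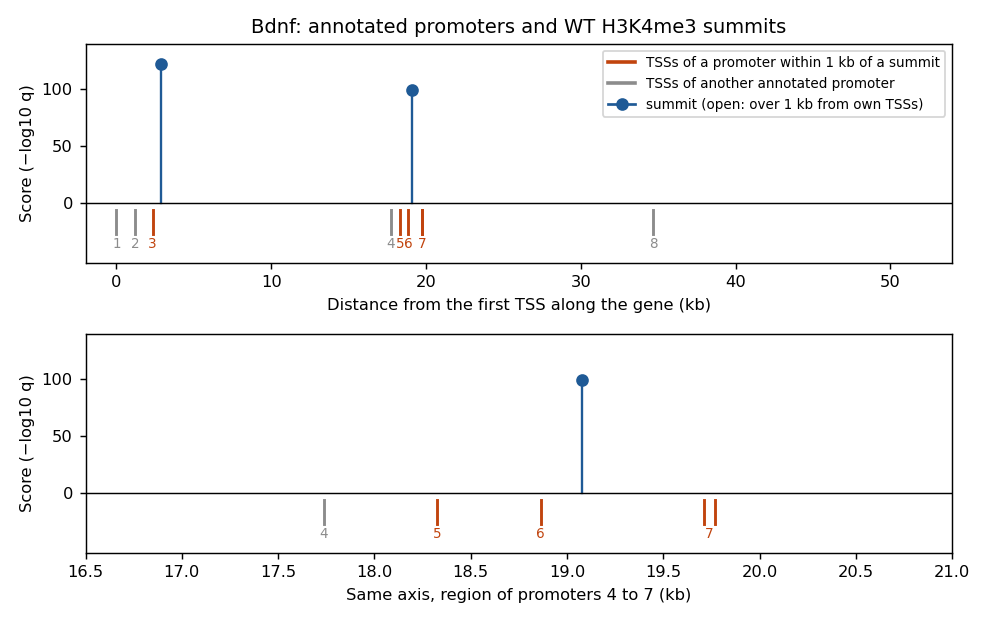
The 8 annotated Bdnf promoters (numbered ticks) and the 2 WT H3K4me3 summits (stems, height as −log10 of the q-value) against the distance from the outermost TSS in kb, for the whole gene above and for promoters 4 to 7 below. The summits, with scores of 122.6 and 99.41, lie beside promoter 3 and among promoters 5 to 7, and the part of the gene with the shared coding exon, at the right, has none.

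The 2 remaining ligands had weak summits. Ntf3 (ENSMUSG00000049107, chromosome 6, 126101412 to 126166910, minus strand) has 3 transcripts and 2 promoters. The summit at 126164692 in its promoter had a score of 9.717, above 18.7% of the list, and lay 268 bp downstream of the TSS of Ntf3-203 (promoter 2), in an intron. This summit was 55 bp downstream of the start codon used by 2 of the 3 transcripts. A summit with a higher score, 40.41, lay 1276 bp further into the same gene at 126163416, also in an intron and 1544 bp from the TSS. The highest score at Ntf3 was therefore outside the promoter window, the only one of the 6 genes besides Ntf5 where this was so. Promoter 1, with Ntf3-201 and Ntf3-202, was 2023 bp from the nearest summit and unmarked.

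Ntf5 (ENSMUSG00000074121, chromosome 7, 45413695 to 45417179, plus strand) is the shortest of the 6 genes, at 3485 bp, with 2 transcripts and 1 promoter. The summit at 45413845 had a score of 7.763, above 14.9% of the list. It lay 150 bp downstream of the TSS of Ntf5-201 and 59 bp upstream of that of Ntf5-202. A second summit, at 45415769, scored 8.381 and lay in coding sequence, 323 bp downstream of the start codon. Ntf5 was the only one of the 6 genes with summits of other genes within 20 kb of its ends. A summit with a score of 7.505 lay 1355 bp past its end, just outside the rule, and among its neighbours the highest scores were 217.2 at Snrnp70, 207.3 at Ruvbl2 and 142.7 at Gys1. Both Ntf5 summits were thus below the lower quartile of the list, while promoters within 20 kb had summits above the upper quartile.

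Over all 6 genes, 7 summits were promoter summits and 4 lay in the gene body more than 1 kb from every TSS of the gene. The body summits were at Ntf3, Ntf5, Ntrk2 and Ngfr, 4 of the 6 genes, compared with 14.7% of all protein-coding genes. By gene length, the share was 9.17% for genes under 50 kb, such as Ntf5 and Ngfr, 33.2% for genes of 50 kb or longer, such as Ntf3 and Bdnf, and 59.6% for genes of 300 kb or longer, such as Ntrk2 and Ntrk3. Of the 4 body summits, 3 lay within 2 kb of a TSS of the gene, and the exception was the intronic summit of Ntrk2. Counting both kinds, 5 of the 6 genes had 2 or more summits, compared with 20.5% of protein-coding genes. Ntrk3 was the exception. With 6 genes chosen by name these shares are descriptions. At the edge of the promoter window, the farthest promoter summit lay 553 bp from the nearest TSS of its gene (Bdnf) and the nearest body summit 1519 bp from it (Ngfr).

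The rule gave no weight to sequence, so CpG content was compared between marked and unmarked promoters. The measure was the ratio of observed to expected CpGs within 500 bp of the outermost TSS of each promoter. Of the 27 promoters of the 6 genes 9 were marked, compared with 34% of promoters of all protein-coding genes. The 9 marked promoters had a median ratio of 0.592, from 0.511 at Ntf5 to 0.756 at promoter 5 of Ntrk3. The 18 unmarked ones had a median of 0.222, from 0.0453 to 0.789. Among the unmarked promoters, the median was 0.496 for the 7 with a coding transcript and 0.167 for the 11 without one. All marked promoters had a coding transcript, so 0.496 is the closer comparison with 0.592. Over all protein-coding genes the medians were 0.688 at 17886 marked and 0.218 at 34660 unmarked promoters. All 9 marked promoters were among the 16 that start a coding transcript. None of the 11 promoters without a transcript annotated as protein-coding was marked, and their ratios were 0.0453 to 0.268. Over all protein-coding genes, 47.8% of promoters with a coding transcript and 8.54% of those without one were marked. Of the 18 unmarked promoters, 3 had a ratio at or above the lowest marked one. They were promoter 1 of Ntrk2 (0.789), promoter 1 of Bdnf (0.596) and promoter 2 of Bdnf (0.586), and each lay 1688 to 2885 bp upstream of a summit of its own gene. Bdnf promoter 8, at 0.199, was the least CpG-rich of the Bdnf promoters, as its upstream sequence shows. Windows of neighbouring Bdnf promoters overlap, so their ratios share bases.

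**Figure D4:**
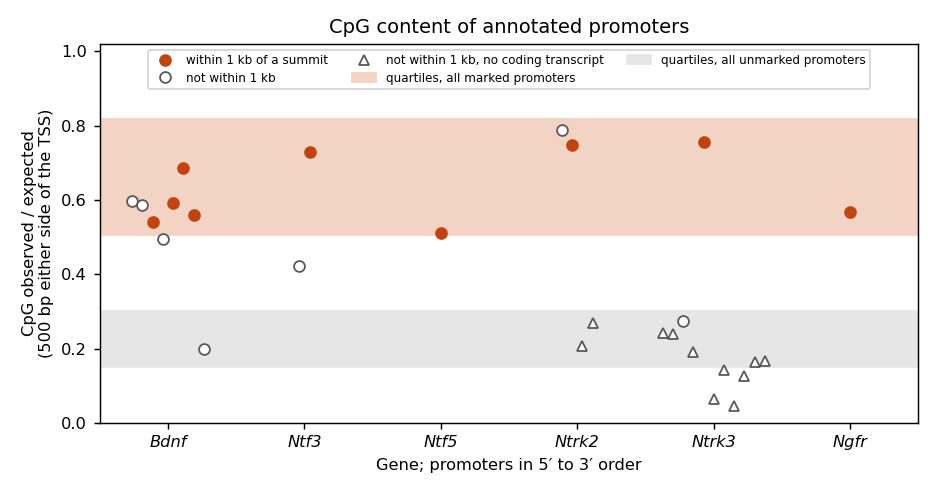
Observed over expected CpG within 500 bp of each of the 27 promoters (y axis), by gene and in 5′ to 3′ order. Filled points are promoters within 1 kb of a WT summit, open circles are other promoters with a coding transcript and triangles those without one; bands are the quartiles of marked (0.505 to 0.819) and unmarked (0.149 to 0.301) promoters of all protein-coding genes, and the open circle at 0.789 is Ntrk2 promoter 1.

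Bdnf transcription is known to respond to neuronal activity through CREB and other factors, so short motifs were counted on both strands of RefSeq promoter windows of GRCm38, 250 bases before to 50 after a TSS. Of the 6 genes, 4 had such windows, 11 in all: 7 at Bdnf, 2 at Ntf3 and 1 each at Ntrk2 and Ngfr. The full cAMP response element TGACGTCA was in none of the 11 and in 1.79% of all 32851 windows. The variant TCACGTCA was in 1 of the 11, that of Bdnf promoter 4, and in 0.441% of all windows. It begins 38 bp upstream of the TSS of Bdnf-209 and contains the core CGTCA, which 20.8% of windows hold. It is shown in capitals with its flanks.
Bdnf promoter 4, motif, chr2:109692387-109692416, + strand: catatgacagcTCACGTCAaggcagcgtgg
The promoter with this motif was 1 of the 4 Bdnf promoters without a summit within 1 kb, and the nearest summit, at 1343 bp, was the downstream one. The GC box GGGCGG was in 6 of the 11 windows, with 4 copies at Ngfr, 2 at Bdnf promoter 3, 2 at Ntf3 promoter 2 and 1 each at Bdnf promoter 5, Ntf3 promoter 1 and Ntrk2 promoter 1, compared with 35.7% of all windows with any. The E-box CACGTG was at Ntf3 promoter 1 alone, and TATAAA was in none of the 11, compared with 7.15% and 13.6% of all windows. A match of letters is a description and shows no binding.

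The other genes of the pathway were taken from lists of ligands, receptors and signalling proteins. The 4 sortilin family receptors listed, which pair with p75NTR or traffic neurotrophins and Trk receptors, had promoter summits, with highest scores of 224.7 at Sorcs3, 223.7 at Sorcs1, 173.8 at Sorcs2 and 165.2 at Sort1. Nradd, a p75NTR-like death domain protein, scored 49.56.

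Of 11 genes for cleavage of the precursors, 6 had a promoter summit, with the highest scores at Pcsk7, a proprotein convertase (220.9), and Plat, tissue plasminogen activator (213.4). Pcsk2, another convertase, and Plg, plasminogen, had none. All 37 Trk adaptors and effectors had one, with a median highest score of 200.2 and a score of 280.4 at Gsk3b, a kinase. Of 17 p75NTR partners, 16 had one, with Rhoa (278.4), a small GTPase, and Adam17 (274.6), a protease that sheds p75NTR, at the top, and Ndn, which encodes necdin, without. In all, 65 of the 72 pathway genes had a promoter summit, 90.3% (95% Wilson interval 81.3 to 95.2, counting error only), compared with 64.7% of protein-coding genes. Their median highest score was 193.9, near the 194.6 of all genes with a promoter summit. All 17 genes listed as regulators of Bdnf transcription had a promoter summit, with a median of 207.7 and the highest scores at Mef2d (274.6), a transcription factor, and Npas4 (249.5), an activity-dependent one.

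The GDNF family, a second system of neuronal growth factors with its own receptors, was set beside the neurotrophins. Of its 10 genes 6 had a promoter summit, 60% (31.3 to 83.2), near the 64.7% of all protein-coding genes. Their median highest score was 102. The ligands Gdnf and Nrtn scored 38.81 and 23.87, and Artn and Pspn had none. The co-receptors Gfra2, Gfra4 and Gfra1 scored 172.5, 149.3 and 122.8, the receptor Ret scored 81.28, and Gfra3 and Gfral had none. The ligands Gdnf and Nrtn thus scored below Bdnf and above Ntf3 and Ntf5. Of 51 receptor tyrosine kinases other than Trk, 44 had a promoter summit, 86.3% (74.3 to 93.2), compared with the same 64.7%. The median highest score of the 44 was 93.77. Ntrk2 and Ntrk3 scored above that median, and the highest of the 44 were Insr (276.5), the insulin receptor, and Epha6 (253.8), an ephrin receptor. Insrr and Musk had none.

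**Figure D5:**
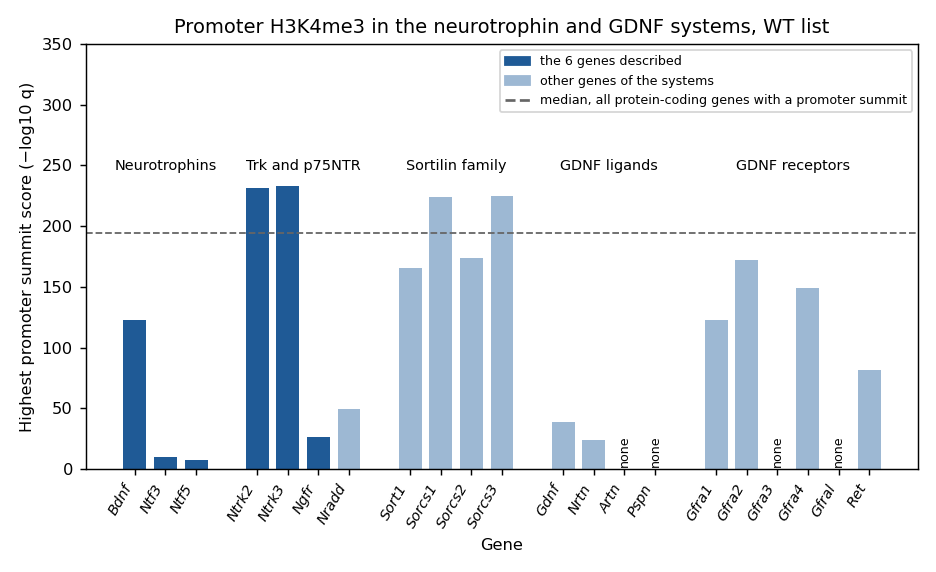
Highest promoter summit score (−log10 of the q-value, y axis from 0) of ligand and receptor genes of the neurotrophin and GDNF systems in the WT list, with the 6 genes described in dark bars. Genes marked none have no summit within 1 kb of a TSS; the dashed line is the median of all protein-coding genes with a promoter summit (194.6), which Ntrk2, Ntrk3, Sorcs1 and Sorcs3 exceed.

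The tissue was checked by markers of its cell types. All 8 neuronal markers had promoter summits (104.8 to 266.8), as had 5 of 6 markers of amygdala neuron subtypes (41.9 to 119.7), 5 of 5 of astrocytes (29.18 to 188.4), 5 of 7 of the oligodendrocyte lineage (81.14 to 182.9), 5 of 5 of microglia and 5 of 5 of endothelial and mural cells (8.009 to 70.41). None of 8 markers of cells outside the brain did (0%, Wilson interval 0 to 32.4). Of these 8, 2 had a summit in the gene body more than 1 kb from every TSS of the gene, compared with 14.7% of all protein-coding genes. The ranges of neurons, amygdala neuron subtypes, astrocytes and the oligodendrocyte lineage overlapped one another. The range of endothelial and mural cells overlapped those of amygdala neuron subtypes and astrocytes. It lay below those of neurons and of the 5 oligodendrocyte lineage markers with a promoter summit. The other 2 markers of that lineage had no promoter summit and are outside its range. Which cells carried the mark was not tested.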

How the data were processed

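H3K4me3 was profiled by ChIP-seq in amygdala nuclei, and only the WT peaks were used here. According to the study's methods, the authors mapped reads with Bowtie (mm10, at most 2 mismatches) and called peaks with MACS2 2.1.0.20140616 (version per the labels) against the input. The authors deposited 1 list for both WT mice, with 1 score per summit that was taken as −log10 of the q-value. Reads per sample, peak widths and the mutant samples were not analysed here, and no expression values were used. Per-sample columns without a match numbered 0.

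The 23 summits outside chromosomes 1 to 19, X and Y were set aside. TSSs came from GENCODE M21. The 47 annotated transcripts of the 6 genes matched the GRCm38 genome exactly, so coordinates and sequences are on 1 build. A promoter summit lay within 1 kb of a TSS, and TSSs of 1 gene within 500 bp formed 1 promoter. Promoter windows for motifs came from RefSeq on GRCm38. Motifs were searched on both strands, and CpG was counted as observed over expected.

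The members and lists were chosen with earlier results of these data known. Named were the 6 members, the other listed receptors and the GDNF family genes, the 2 highest-scoring genes of each remaining list and the first 2 without a promoter summit in list order, and the 3 genes most like Bdnf by numbers of promoters and marked promoters, ties broken by highest score. Neighbours of Ntf5 were named after their values were seen. Single values of microglial markers and of some other listed genes are not reported here.

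Shares carry 95% Wilson intervals, which cover counting error only. There are no replicates in a pooled list, so no p-value was computed. Assignment of summits was tested on simulated data. Alternatives covered the score threshold, the promoter window, joining of summits, the TSSs used, the grouping of TSSs and the CpG window. Python 3.11.15, numpy 2.4.6, scipy 1.17.1, pysam 0.24.0, samtools 1.23.1 and matplotlib 3.10.9 were used.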

Additional observations from a re-analysis of the deposited data

How the results depend on the processing

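Every value comes from 1 pooled list, so the spread between mice is unknown. No paired analysis was possible because the list pools both WT mice, and for the same reason no replicate could be left out. Of the values recomputed, 113 stayed within 1.5 times a count, within the Wilson interval of a share or at the reported score. The other 35 were counted as changed. They include the median CpG ratios at the alternative CpG windows, to which none of these criteria applied. With summits under the median score left out, 3 of the 6 genes had a promoter summit, 3 summits and 3 promoters remained at them, and the shares with a promoter summit became 52% of all protein-coding genes, 30% of the GDNF family and 39.2% of other receptor tyrosine kinases. With a window of 500 bp, the highest promoter score of Bdnf was 99.41, 6 promoters of the 6 genes were marked, and the shares became 77.8% of the pathway genes and 57.1% of all genes. With a window of 3 kb, the scores of Ntf3 and Ntf5 were 40.41 and 8.381, as they were with gene-body summits included, 14 promoters were marked, and the share of all genes became 67.1%. Bdnf had 1 marked promoter at the higher score threshold or the 500 bp window, 2 with TSSs grouped within 1 kb and 7 with the 3 kb window. Grouping TSSs within 100 bp gave 15 marked promoters over the 6 genes. The share of all genes was 63.5% with TSSs of protein-coding transcripts and 63% with those of basic transcripts. The median CpG ratio of marked and unmarked promoters was 0.717 and 0.255 with 250 bp either side, and 0.602 and 0.197 with 1 kb. Adding RefSeq TSSs and including gene-body summits were chosen after seeing the data.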

Other observations

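RefSeq places a further Bdnf TSS at 109722921, which GENCODE M21 does not list, shortly before the shared coding exon. No WT summit lay within 1 kb of it, and adding it left 4 marked Bdnf promoters.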
